A study of Mus with 5 samples.

Results

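The common gamma chain (γc) cytokine receptors are a family of surface receptors that share the subunit encoded by Il2rg. Each of the other chains decides which cytokine is bound: Il2ra (CD25) and Il2rb for IL-2, Il15ra with Il2rb for IL-15, Il7r for IL-7, Il4ra for IL-4 and Il21r for IL-21. The receptors signal through the kinases JAK1 and JAK3 and through STAT transcription factors, and in CD8 T cells they govern expansion, effector differentiation and the survival of memory cells. BATF is a transcription factor of the AP-1 family that T cells induce on activation, and RARα is a nuclear receptor for retinoic acid (RA), a metabolite of vitamin A. The binding of RARα and BATF was read at these 7 genes from 4 annotated lists of chromatin immunoprecipitation sequencing (ChIP-seq) peaks, in which a peak is a place where DNA fragments recovered with an antibody pile up. A peak was taken as a peak of a receptor gene when the gene was among those that the authors' annotation names for it. This gave 82 peaks of 27480 in the 4 lists, which fell at 45 separate sites when overlapping peaks were joined.

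The cells were naive CD8 T cells from the spleen of wild-type mice. In all groups they were activated for 24 h with antibodies to CD3 and CD28 and IL-2, rested for 24 h in IL-2 at 100 U/ml, and given either no RA (control) or RA at 50 nM for the last 1 h. IL-2 was therefore present under both conditions, although the treatment field of the labels names other interleukins for some samples. A normal rabbit IgG library, the same for all 4 lists, served as background, and whether its cells received RA is not stated. Each list was called on 2 pooled alignment files, and the sources do not say whether these are replicates. The pools held 16424269 fragments (BATF with RA) to 23110180 (BATF control). With 1 list per condition the data hold no replicate error, and the conditions are compared below without a test. The files hold no expression values, so the cell type was not checked against its markers.

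In control cells 8 of 1172 RARα peaks were named for a receptor gene, and they covered 5 of the 7 genes. With RA there were 2 of 597, which covered 3 genes because 1 peak was named for both Il4ra and Il21r. Over 21896 protein-coding genes, 6.86% had a RARα peak in the control list and 3.06% in the list with RA. BATF had 43 of 15812 peaks in the control and 29 of 9899 with RA, and under both conditions all 7 genes had at least 1 BATF peak. The share of protein-coding genes with a BATF peak was 46.2% in the control and 36.4% with RA. These shares are not matched for gene length or spacing, which bear on how many peaks a gene is named for.

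On mm10 Il2ra (chr2:11642792-11693194) and Il15ra (chr2:11705172-11733985) are neighbours, as are Il4ra (chr7:125552271-125579474) and Il21r (chr7:125603252-125634397). Il7r (chr15:9506159-9529941) and Il2rb (chr15:78479256-78511621) lie far apart on chromosome 15, and Il2rg is on the X chromosome (chrX:101264385-101268255). Il2ra, which encodes the chain that raises the affinity for IL-2, had 1 RARα peak in the control and none with RA, and 9 BATF peaks in the control and 6 with RA. Il15ra had 1 and none for RARα and 6 and 4 for BATF. Several of the peaks of these neighbouring genes are the same peaks, since 4 of the BATF control peaks and 3 of those with RA were named for both. Il2rb, the chain that IL-2 and IL-15 receptors have in common, had 2 RARα peaks and then 1, and 11 BATF peaks and then 4. That is the largest drop in the number of BATF peaks among the 7 genes. Only 2 of the 11 control peaks named Il2rb alone, and within 10 kb of the gene there were 8 in the control and 3 with RA. The whole BATF list also fell, from 15812 to 9899 peaks, and the pool with RA had 72.0% of the control depth. Il4ra had 3 RARα peaks and then 1, and 10 BATF peaks and then 8. Il21r had 4 RARα peaks and then 1, and 9 BATF peaks under each condition. For RARα, 0.0731% of protein-coding genes had as many control peaks as Il21r or more. Of the 4 RARα control peaks of Il21r, 3 lay within 10 kb of it and 2 named no other gene. The others were also named for Il4ra, and 1 of them lay 91225 bp from Il21r. Il4ra and Il21r shared BATF peaks under both conditions as well. Il7r had no RARα peak, and its BATF peaks numbered 6 and then 4. Il2rg, the shared chain, also had no RARα peak and the fewest BATF peaks, 2 and then 1, a number that 22.5% of protein-coding genes reached in the control.

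**Figure D1:**
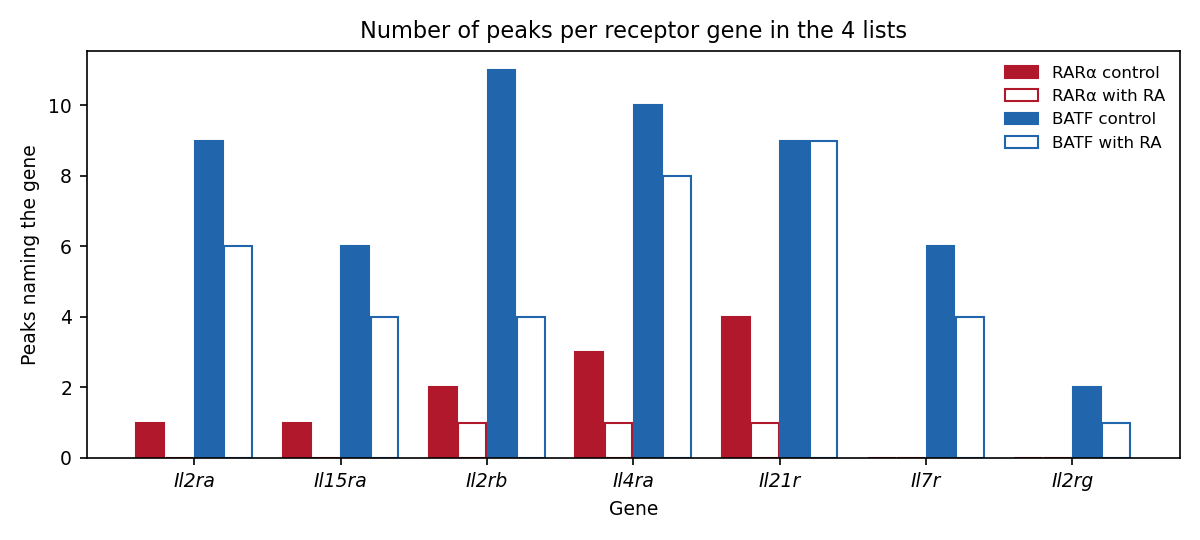
Bars give the number of peaks named for each receptor gene (vertical axis, peaks) in the 4 lists, with RARα in red, BATF in blue, filled bars for control and open bars for RA, and a peak named for 2 of the genes counted under each. Il2rb fell from 11 BATF peaks, of which 2 named no other gene, to 4. Il21r stayed at 9, and Il7r and Il2rg show no RARα bar.

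The annotation also gave each peak a class. In the BATF control list 12 of 43 were classed as promoter by the annotation (27.9%), against 58.7% of the whole list, and 26 as intergenic (60.5%), against 18.1% of the list. With RA 9 of 29 were promoter peaks (31.0%), against 64.6% of that list. These shares are not like for like, because an intergenic peak is named for 3.95 genes on average in the BATF control list and a promoter peak for 1.21, so that an intergenic peak can more readily name a receptor gene. All 26 intergenic control peaks of the family were named for several genes, and none of the other 17 was. Among the 29 control peaks within 10 kb of a receptor gene, 12 were promoter and 12 intergenic (41.4% each). Of the 8 RARα control peaks 3 were promoter, 1 was intronic and 4 were intergenic, and both RARα peaks with RA were intergenic. Distance to the gene was measured from the edge of the peak to the nearest end of the gene in the RefSeq table for GRCm38.p6, which corresponds to mm10. By this measure 6 of the 8 RARα control peaks were within 10 kb of a receptor gene. The farthest BATF control peak was 80203 bp away, and the farthest peaks were also named for other genes. A peak named for several genes is therefore an assignment by position and not evidence of the gene that it serves.

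**Figure D2:**
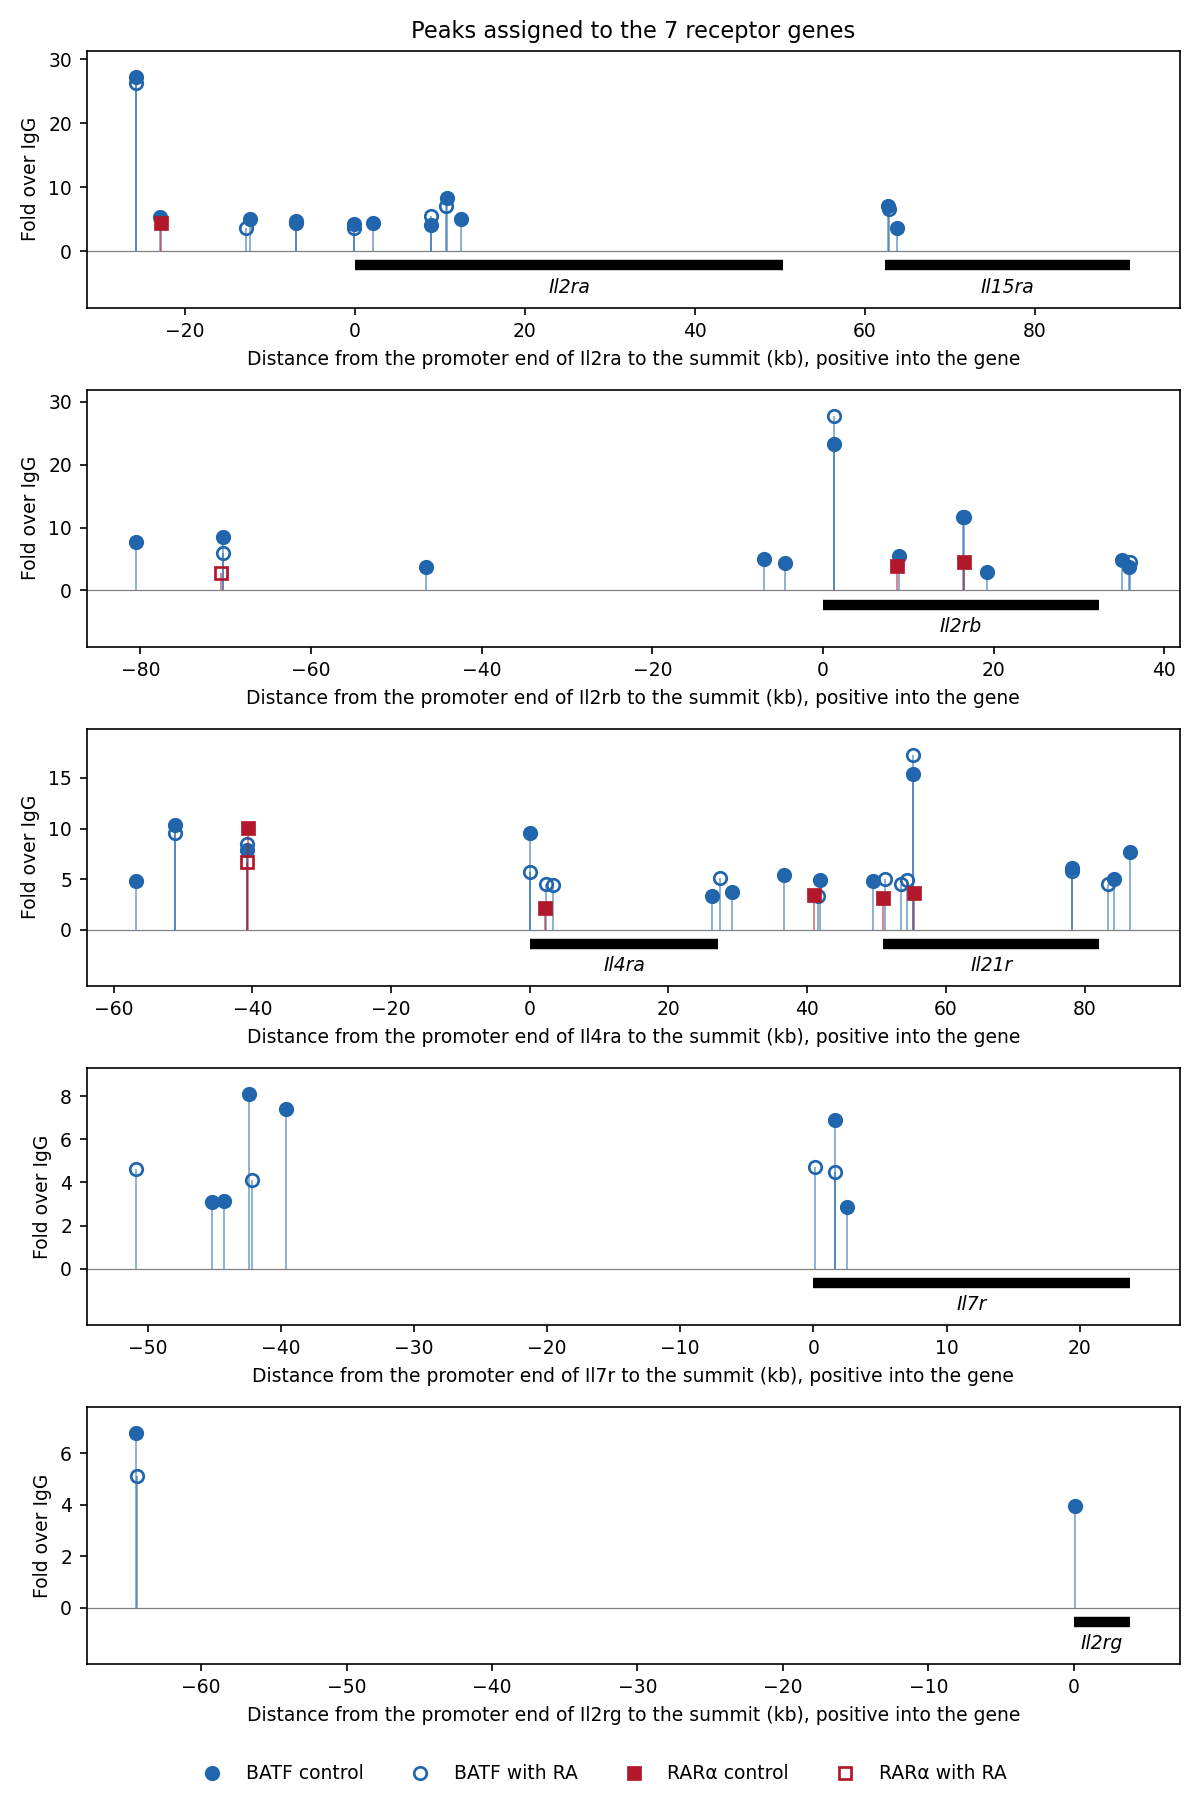
Each panel shows 1 locus, with the position of the peak summit relative to the promoter end of the first gene on the horizontal axis (kb), the fold enrichment over IgG on the vertical axis, and black bars for the genes. The tallest BATF peaks stood 25291 bp before Il2ra and just inside the Il2rb range, filled and open symbols lay close together there, and the strongest RARα peak stood 40244 bp before Il4ra.

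RARα was strongest at an intergenic site before Il4ra, which encodes the alpha chain of the IL-4 receptor. The control peak at chr7:125511198-125512027 began 40244 bp from the promoter end of Il4ra, held 39 fragments at its summit and was 10.1-fold enriched over IgG. It ranked 22 by p among the 1172 control peaks. Fold enrichment is the number of fragments at the summit plus 1, over the local IgG level plus 1. With RA the peak at chr7:125511396-125511801 held 32 fragments and was 6.68-fold enriched, rank 29 of 597. It is the only 1 of the 8 RARα control peaks that had a RARα peak within 5 kb in the list with RA. Scaled to 1000000 fragments of the pool, which is called the normalised signal here, it was 1.72 in the control (95% Poisson interval 1.22 to 2.35) and 1.42 with RA (0.974 to 2.01). These intervals overlap, and they cover counting error only. The local IgG level used by the caller was 1.03 times the genome background in the control and 1.33 times with RA, where the summit lay elsewhere in the peak. BATF was found at the same place, with 38.5 fragments and 7.90-fold enrichment in the control (chr7:125511449-125511886) and 32 fragments and 8.51-fold with RA (chr7:125511449-125511774). This was the only 1 of the 45 sites with a peak in all 4 lists. Of the other sites 20 had a BATF control peak alone, 15 had BATF under both conditions without RARα, 2 had BATF with RA alone and 7 had RARα in 1 list together with BATF. The annotation names 4 genes here, Il4ra and Il21r among them.

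Il4ra itself carried a weak RARα peak in its intron 1, classed as promoter, at chr7:125554297-125554533. It held 18 fragments and was 2.12-fold enriched over an IgG level that was 2.76 times background. A BATF control peak of 44.4 fragments and 9.58-fold enrichment covered the promoter and part of intron 1 (chr7:125551719-125556731), but its summit lay 2156 bp from that of RARα. With RA 3 smaller BATF peaks stood within the same stretch. The one at the promoter held 21 fragments (5.67-fold), and the one over the RARα peak held 33 (4.55-fold). On the far promoter side, 50998 bp away, was the strongest BATF peak of Il4ra by fold, with 61.2 fragments and 10.4-fold enrichment in the control and 43 fragments and 9.57-fold with RA.

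At Il21r RARα control peaks stood at 3 further places. At the promoter (chr7:125603064-125603498) the RARα peak held 11 fragments and was 3.09-fold enriched. In intron 1 (chr7:125607437-125607824) it held 17 fragments and was 3.62-fold enriched. Both lay inside 1 BATF control peak of 5632 bp (chr7:125603051-125608682), whose summit of 76.0 fragments, 15.4-fold over IgG, was 53 bp from the intronic RARα summit. The same BATF summit was 4309 bp from the RARα summit at the promoter. In the control list only 0.0949% of BATF peaks were at least as wide as this one. With RA no RARα peak was called at either place, whereas BATF had 4 peaks across the same stretch. The tallest of these, at chr7:125607288-125608685, held 66 fragments and was 17.3-fold enriched, a normalised signal of 4.02 (3.11 to 5.11) against 3.33 in the control (2.63 to 4.16). The equal number of BATF peaks at Il21r under both conditions, 9 and 9, thus includes 1 broad control peak set against 4 peaks with RA. The remaining RARα peak lay 9842 bp before the gene (chr7:125593055-125593410), with 26 fragments and 3.40-fold enrichment at an IgG level of 2.41 times background. A BATF control peak overlapped its edge with 27.65 fragments and 4.94-fold enrichment, and the nearest BATF peak with RA began 222 bp away.

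At Il2rb RARα was found at the promoter of the RefSeq transcript (chr15:78494837-78495201), with 17 fragments and 4.52-fold enrichment. BATF was 11.7-fold enriched there under both conditions, with 57.3 fragments in the control and 36 with RA, and its summits were 97 bp and 4 bp from that of RARα. The other RARα control peak (chr15:78502675-78503047) was classed as intergenic, although it lies within the range of the gene in the RefSeq table, which includes longer predicted transcripts. It held 19 fragments and was 3.84-fold enriched. BATF overlapped it in the control (25.7 fragments, 5.51-fold), but with RA no peak of either factor was called within 5 kb of it. The RARα peak with RA named for Il2rb (chr15:78582078-78582405) was far from the gene, at 70457 bp, weak, with 10 fragments and 2.78-fold enrichment, and named for 6 genes. It overlapped a BATF control peak of 31.6 fragments, and a BATF peak with RA began 28 bp away.

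Il2ra and Il15ra were named for the same RARα control peak, 22504 bp before Il2ra (chr2:11619770-11620288), which held 19 fragments and was 4.51-fold enriched. BATF overlapped it with 23.7 fragments and 5.37-fold enrichment in the control only. Il7r and Il2rg had no RARα peak nearby. The nearest in the control was 2951986 bp from a BATF peak of Il7r and 3772958 bp from one of Il2rg.

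All 8 RARα control peaks thus overlapped a BATF control peak (95% Clopper-Pearson interval 63.1 to 100%), where 53.4% of the RARα list did so and 61.9% had a BATF peak within 5 kb. The interval takes the 8 peaks as independent, although 2 of them lay inside the same broad BATF peak. An overlap also need not mean a shared summit. The summits were 4309 bp apart at the Il21r promoter, 2156 bp at the Il4ra promoter and 875 bp at the distal Il21r peak. Both RARα peaks with RA had a BATF peak with RA within 5 kb, against 16.4% of that list. In the other direction 11 of the 43 BATF control peaks (25.6%, 13.5 to 41.2%) had a RARα control peak within 5 kb, against 7.16% of the BATF list. Some of these 11 are neighbours in a cluster around the same RARα peak, and peaks of 1 locus are not independent. Of the RARα control peaks 1 of 8 (12.5%, 0.316 to 52.7%) had a RARα peak with RA within 5 kb, against 10.2% of the list, and 1 of the 2 RARα peaks with RA had a control peak, against 19.6%. With so few peaks these shares cannot be told from those of the list. Depth differed little between the RARα pools (99.2% with RA relative to control). At that depth, with an unchanged share of fragments, 6 of the 7 control peaks without a counterpart would still pass the cutoff, against 89.1% of such peaks in the list. All of them had passed it at the full depth, so this outcome was nearly fixed in advance and is not a test of depth. A site without a call may still be bound, because fewer fragments than the cutoff asks for give no peak. Nor can such a list tell a site bound in fewer cells from one bound less in each cell. In 3 of the 8 RARα control peaks (37.5%) the annotation named a LINE repeat, namely the intronic and the distal peak of Il21r and the peak before Il2ra, against 7.51% of the list. This feature was picked after the values had been seen.

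**Figure D3:**
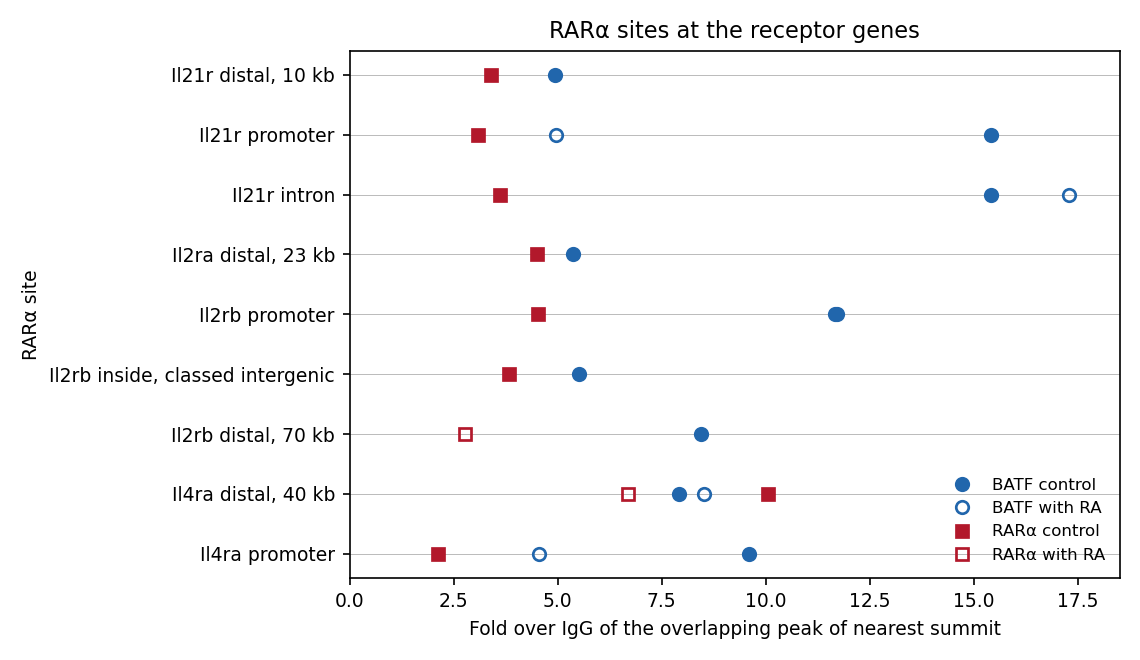
Rows are the 9 places with a RARα peak, and the horizontal axis gives the fold enrichment over IgG of the RARα peak and of the BATF peak that overlaps it (nearest summit where several do), with filled symbols for control and open ones for RA. Every row has a BATF control symbol, and only the distal Il4ra row has both RARα symbols, at 10.1 and 6.68. In 2 promoter rows the BATF symbols belong to different summits and are not a like comparison of conditions. For Il21r the control summit (15.4) lay 4309 bp from that of RARα and the RA summit (4.96) 236 bp. For Il4ra these were 2156 bp (9.58) and 104 bp (4.55). In the Il2rb promoter row both BATF symbols coincide at 11.7.

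The strongest BATF peaks of the family were named for Il2ra and Il2rb and kept a high enrichment with RA. Both were classed as intergenic and assigned by position. The Il2ra peak was named for 4 genes, Il15ra among them, and the Il2rb peak for 8. Before Il2ra, at 25291 bp (chr2:11616567-11617501), the control peak held 137 fragments and was 27.2-fold enriched, rank 118 of 15812 by p. With RA the peak held 101 fragments and was 26.3-fold enriched, rank 98 of 9899. The normalised signal was 6.01 in the control (5.06 to 7.1) and 6.15 with RA (5.01 to 7.47), each value inside the interval of the other. The RARα control peak 2269 bp from it was the nearest. At Il2rb a peak at the promoter end of the table range (chr15:78509860-78511340, classed as intergenic) held 139 fragments and was 23.4-fold enriched in the control, and held 110 fragments and was 27.8-fold enriched with RA. Here the normalised signal was 6.10 (5.14 to 7.20) and 6.70 (5.50 to 8.07), and the intervals overlap again. The nearest RARα control peak was 6813 bp from it.

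Within Il2ra BATF had a peak at the promoter and others along intron 1. The promoter peak (chr2:11642403-11643225) held 55.3 fragments in the control but was only 4.33-fold enriched, because IgG there was 4.19 times background, the highest of any control peak of the family. With RA it held 34 fragments and was 3.63-fold enriched. In intron 1 the peak at chr2:11653233-11653868 went from 40.5 fragments and 8.33-fold in the control to 26 fragments and 7.14-fold with RA. A second intronic peak (chr2:11651541-11651787) had 36.5 fragments and 4.17-fold enrichment in the control and 28 fragments and 5.45-fold with RA. Another (chr2:11655164-11655609, 37.5 fragments, 4.99-fold) was not overlapped by a peak with RA. At the Il15ra promoter (chr2:11705470-11705757) BATF held 26.7 fragments and was 7.16-fold enriched in the control, and held 19 fragments and was 6.61-fold enriched with RA.

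Il7r, the alpha chain of the IL-7 receptor that naive and memory T cells rely on, had the lowest BATF signal with RA among the genes with more than 1 peak, at most 4.70-fold. Its promoter peak in the control (chr15:9528013-9530198) held 54.3 fragments and was 6.91-fold enriched. With RA 2 peaks lay within it, of 26 fragments (4.47-fold) and 24 fragments (4.70-fold). At a site 41936 bp from the promoter end the control peak held 31.6 fragments and was 8.11-fold enriched, while the peak with RA held 12 fragments and was 4.12-fold enriched. That is a difference of -0.98 on the log2 scale of fold enrichment, the lowest among the overlapping pairs of the family. The normalised signal was 1.38 (0.947 to 1.95) against 0.731 (0.378 to 1.28), and these intervals overlap as well. A peak with RA 50718 bp from the gene (13 fragments, 4.63-fold) had no control peak within 5 kb, the nearest being 5405 bp away. At Il2rg the promoter peak of the control (chrX:101267792-101268468) held 18.8 fragments and was 3.95-fold enriched, and the nearest BATF peak with RA was 45322 bp from it. The other Il2rg peak lay 64351 bp away and was named for 8 genes. It held 53.3 fragments in the control (6.79-fold) and 30 with RA (5.13-fold).

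Over the family 38 of the 43 BATF control peaks (88.4%, 74.9 to 96.1%) had a BATF peak with RA within 5 kb, against 69.9% of the list. The receptor peaks lie in clusters, and a distance of 5 kb also finds a neighbouring peak. When the peaks themselves had to overlap, 21 of 43 did (48.8%, 33.3 to 64.5%), against 54.4% of the list, so the share was above that of the list by distance and below it by overlap. From the other side 28 of 29 peaks with RA had a control peak within 5 kb (96.6%, 82.2 to 99.9%), against 96.3% of the list, and 27 of 29 overlapped one (93.1%), against 93.6%. BATF peaks with RA at these genes were thus nearly all at places where BATF was also called without RA. By gene 4 of 11 control peaks were overlapped at Il2rb, 2 of 6 at Il7r, 5 of 10 at Il4ra, 5 of 9 at Il21r, 6 of 9 at Il2ra, 4 of 6 at Il15ra and 1 of 2 at Il2rg. Of the 5 control peaks with no peak with RA within 5 kb, 4 were named for Il2rb and 1 was the Il2rg promoter peak. The strongest of the 5 was the farthest from its gene, 80203 bp from Il2rb, at 7.76-fold.

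The 22 BATF control peaks without an overlapping counterpart had a median fold enrichment of 4.62 (2.84 to 7.76), against 7.16 (3.79 to 27.2) for the 21 that were overlapped, so that the ranges overlap. The whole list showed the same split, with medians of 4.52 and 6.72. The BATF pool with RA was also the shallower, with 72.0% of the control depth as the caller used it. At that depth, and with an unchanged share of fragments, 16 of the 22 would still pass the cutoff (72.7%), against 87.5% of the BATF control peaks without an overlap in the whole list. All 21 overlapped peaks would pass, as would 98.7% of those in the list. How far depth accounts for the missing calls beyond this calculation was not tested.

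Among the 21 overlapping pairs, taken with the nearest summit where several peaks with RA lay in a control peak (a pairing chosen after the data were seen), the fold enrichment was lower with RA in 15 (71.4%, 47.8 to 88.7%) and higher in 6. In these 21 pairs the difference in log2 fold enrichment ranged from -0.98 at the distal Il7r site to 0.39 in intron 1 of Il2ra. Over all overlapping pairs of the lists it was lower in 75.5%. When each of the 38 control peaks was paired with the peak of nearest midpoint within 5 kb, it was lower in 21 (55.3%, 38.3 to 71.4%), against 66.9% of all such pairs. Over these 38 pairs the log2 difference ranged from -1.77 to 2.67, since a midpoint can match a peak to a neighbour. Without the constant of 1 in the fold, 18 of the 38 were lower and 20 higher (47.4% lower, against 59.7% of all such pairs), so the direction of the majority depends on it. By normalised signal 14 of the 21 were lower with RA (66.7%), against 76.8% of all overlapping pairs. In all 21 pairs the Poisson intervals of the normalised signal overlapped. Overlap of 2 separate intervals is not a test of their difference, so it shows neither that a pair differed nor that it was alike.

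The remaining overlapping pairs were at lower levels. Before Il2ra the peaks at 12187 bp and 6790 bp were 5.11-fold and 4.70-fold enriched in the control and 3.61-fold and 4.37-fold with RA. At the far side of Il2rb, 3413 bp away, BATF was 3.79-fold enriched in the control and 4.57-fold with RA, and the distal peak at 68468 bp was 8.44-fold and 5.95-fold. At Il21r the peak 8933 bp before the gene was 4.94-fold and 3.31-fold enriched. The peak in its intron 7 was 6.07-fold and 5.75-fold, and the one 1187 bp past its far end was 5.02-fold and 4.51-fold.

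Besides that of Il2rg, 5 BATF control peaks classed as promoter had no overlapping peak with RA, and each had a BATF peak with RA within 5 kb. They were 4.48-fold enriched at Il2ra (chr2:11644817-11645591), 3.71-fold at Il15ra (chr2:11706395-11706646), 2.96-fold at Il2rb (chr15:78492056-78492583), 4.80-fold at Il21r (chr7:125601484-125601910) and 2.84-fold at Il7r (chr15:9527022-9527482). All 5 were below the control list's median of 5.40.

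**Figure D4:**
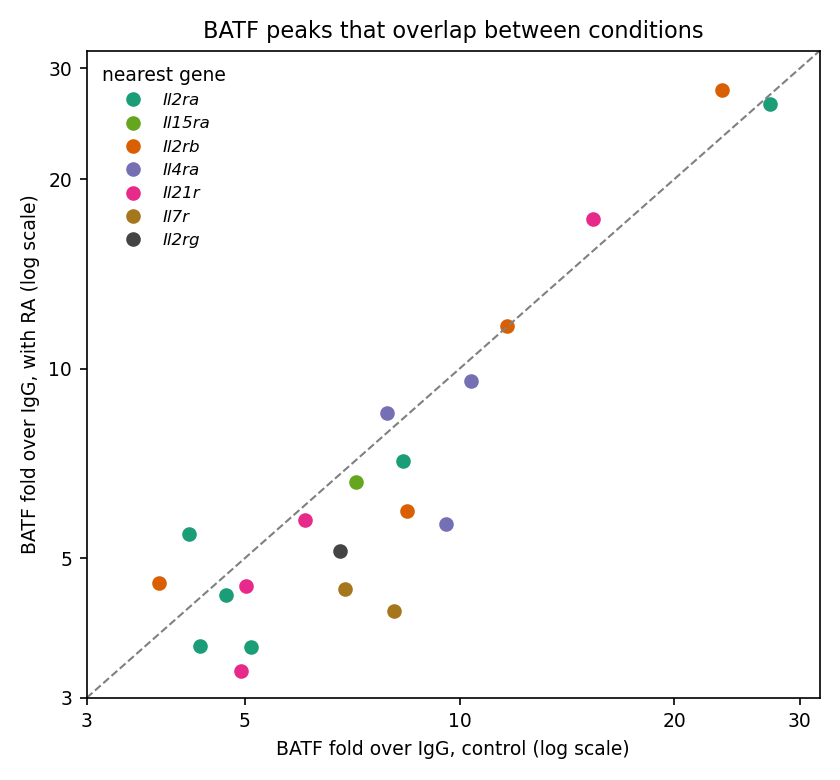
Each point is 1 of the 21 pairs of overlapping BATF peaks, with the fold enrichment over IgG in the control on the horizontal and with RA on the vertical axis (log scales), coloured by the nearest receptor gene, and the dashed line marks equal values. The points of Il2rb and Il2ra at the top right lie close to the line, 15 points lie below it, and the points farthest below it include both of Il7r.

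RARα peaks were also looked for at 17 other genes of the pathway, listed for their role. Of these 4 (23.5%) had a RARα peak in the control and none had one with RA, against 6.86% and 3.06% of all protein-coding genes. BATF had peaks at 12 (70.6%) in the control and 11 (64.7%) with RA, against 46.2% and 36.4%. Among the 6 cytokine genes only Il9 and Il21 had BATF peaks, and no cytokine gene had a RARα peak. Il9r, the remaining receptor of the family, had no peak in any list. Il21, the ligand of Il21r, had 1 BATF peak under each condition, 26.1-fold enriched in the control and 19.2-fold with RA. It lay 60054 bp from Il21 in the control and 60040 bp with RA, and was also named for other genes. Among the 6 transducers Jak1 had 14 BATF peaks in the control and 4 with RA, and its RARα control peak was 2.85-fold enriched. Stat5b, which carries the IL-2 signal to the nucleus, had a RARα control peak of 3.36-fold. The feedback inhibitors Cish and Socs1 had RARα control peaks of 4.21-fold and 2.87-fold, and Socs1 had 8 BATF peaks in the control and 5 with RA. These RARα peaks lay 10099 bp from Cish and 58273 bp from Socs1, and both were also named for other genes. Those of Jak1 and Stat5b lay within the gene and named no other. A list of 15 other cytokine receptors of T cells, such as those for interferons, IL-12 and TGF-β, had 13 RARα peaks at 7 genes (46.7%) in the control. With RA it had 2 at 1 gene (6.67%). Of the 13, 7 were named for Ifngr1. BATF had 87 peaks at all 15 of these receptors in the control and 44 at 14 (93.3%) with RA. The shares of all genes are the same as above and are not matched for gene length or spacing.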

How the data were processed

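ChIP-seq of RARα and BATF was read from 4 annotated peak lists. The authors aligned paired-end reads with Bowtie2 and called peaks with MACS 2.2.7.1 on mm10, pooling 2 files against 1 IgG file, at a p-value of 0.001 (RARα) or 1e-05 (BATF). The pileup column is a signal deposited by the authors (fragments at the summit), scaled to 0.9875 per fragment in the BATF control list. The deposited fold enrichment is a ratio, from which the local IgG level was recovered. The deposited p- and q-values are on the -log10 scale. The p-values recomputed from pileup and IgG level came within 0.05 for at least 99.8% of each list. The authors' annotation gave genes and class. Peaks were called shared within 5 kb, after the methods, and by overlap of at least 1 bp. Intervals are Clopper-Pearson for shares and exact Poisson for fragments, both at 95%. Every RARα peak and, for BATF, the strongest, promoter and paired peaks were to be named. The members and lists were chosen with earlier results of these data known. Pathway genes were listed by role. No sequence was used here. The steps were tested on simulated lists first. Python 3.11.15, pandas 2.3.3, numpy 2.4.6, scipy 1.17.1 and matplotlib 3.10.9 were used.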

Additional observations from a re-analysis of the deposited data

Results flagged for a closer look

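At the intergenic site 40244 bp before Il4ra, the only site with a peak in all 4 lists, the fold enrichments of the factors changed in opposite directions with RA. RARα went from 10.1-fold to 6.68-fold enriched and BATF from 7.90-fold to 8.51-fold. The IgG level under the RARα fold was 1.03 times background in the control and 1.33 times with RA. By normalised signal the log2 change was -0.27 for RARα and 0.21 for BATF. The changes in fold enrichment differ by 0.70 on the log2 scale. With 1 pooled list per condition this difference was not tested, and the Poisson intervals of the normalised signal overlapped for each factor.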

How the results depend on the processing

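Of 86 values recomputed under alternatives for 14 results, 59 stayed close to the reported value and 27 moved. A count was taken as close within a factor of 1.5, and a share when it lay inside the reported interval. These are wide limits. With the named gene within 10 kb, 29 BATF control peaks in place of 43, and a promoter share of 41.4% in place of 27.9%, were taken as close. The share of midpoint pairs lower with RA went from 55.3% to 47.4% without the constant in the fold, inside its interval but on the other side of an even split. A fold enrichment of at least 5 left 1 RARα control peak at 2 genes, 1 RARα peak with RA, 22 BATF control peaks and 14 BATF peaks with RA. A −log10 p of at least 5 for RARα and 10 for BATF left 1 RARα peak with RA, 26 BATF control peaks and 19 BATF peaks with RA, and a q-value of at most 0.05 left 1 RARα peak with RA. The rule on −log10 p and the rule on the q-value each left 6 RARα control peaks, without the promoter peaks of Il21r and Il4ra. Both rules of distance, the named gene or any receptor gene within 10 kb, left 3 genes with a RARα control peak and 0 peaks and 0 genes for RARα with RA. By the first gene named alone, RARα with RA had 1 peak at 1 gene. The share of BATF control peaks with a peak with RA was 48.8% by overlap, 55.8% within 1 kb, 73.1% at the stricter p and 63.6% at the fold of 5. The share of BATF peaks with RA that had a control peak became 100% at the stricter p and with the named gene within 10 kb. The share of RARα control peaks with a peak with RA became 100% of the 1 peak left at the fold of 5, and 0% of 6 with the named gene within 10 kb. The share of pairs lower with RA was 76.2% by overlap with nearest midpoints and 71.4% by overlap with nearest summits, an alternative chosen after seeing the data. No paired analysis was possible because each condition has only 1 pooled list.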
